A study of Mus musculus with 40 samples.

Results

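Of the 20 myometrium libraries in a series of 40, 8 carried more than 1000 CPM (counts per 1000000 counts of the library) of Afp, the transcript of alpha-fetoprotein, and these 8 libraries are described here. They were chosen by that Afp level alone, so the level is a description of the choice and supports nothing. The other 12 myometrium libraries, at 1000 CPM or less, serve as the comparison. Total RNA was sequenced from the myometrium, the smooth muscle wall of the uterus, of pregnant C57BL/6 mice, an inbred strain, collected on day 18.5 post coitum. The mice were injected into the peritoneum with human chorionic gonadotropin (hCG), a hormone of the human placenta that signals through the receptor for luteinizing hormone, or with phosphate-buffered saline (PBS) as the control. There are 10 myometrium libraries of each treatment. The sources used here give no dose, interval or age of the dams, and do not say how fetal membranes were separated from the wall. Libraries are named below by treatment and label number (hCG 10, PBS R3). The labels do not say that each library is a separate mouse, so p-values measure the spread between libraries, which may in part be technical.

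The visceral yolk sac is a membrane that encloses the mouse fetus until birth. Its outer layer, the visceral endoderm, is an absorptive epithelium with a brush border, which takes up maternal protein through the receptors cubilin and megalin and digests it in lysosomes. The same cells secrete plasma proteins that the liver makes later, among them alpha-fetoprotein, apolipoproteins and transferrin.

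In falling order, the 8 chosen libraries had 18678 CPM of Afp (hCG 10), 11957 (PBS 4), 9261 (PBS R3), 8874 (hCG 5), 8342 (PBS 8), 5645 (hCG 7), 5203 (hCG 3) and 3082 CPM (hCG 1). The other 12 ran from 10.7 CPM (PBS 3) to 592 CPM (hCG 2), with no library between 592 and 3082 CPM. By treatment, 5 of 10 hCG and 3 of 10 PBS libraries were over the threshold (two-sided Fisher exact test p = 0.65). Total counts ran from 5449239 to 18135129 in the 8 libraries and from 9176841 to 20603741 in the 12, so a gene with no count in a library could still stand at up to 0.146 to 0.551 CPM (3 counts, counting error only). Smooth muscle genes were abundant in both classes, which is what the tissue label calls for: their 12 genes summed to 14988 to 24384 CPM in the 8 libraries and to 15888 to 32289 CPM in the 12. The transcript Lars2 took over 1% of counts in hCG 3 and PBS 8 of the 8 libraries and in PBS 2 of the 12.

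**Figure D1:**
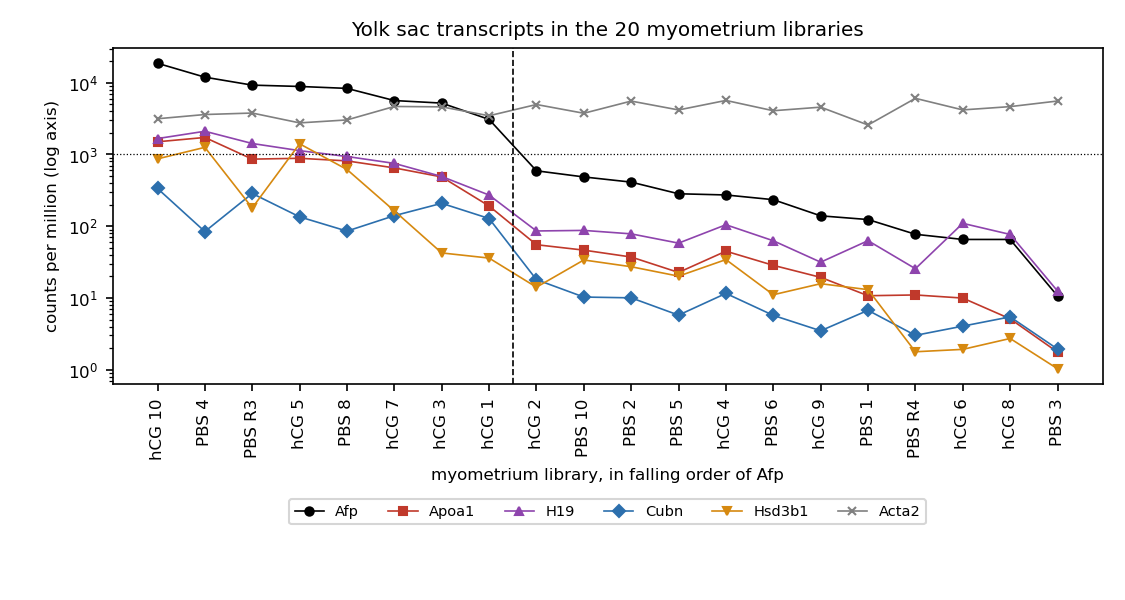
Levels of 6 transcripts (CPM, log axis) in each of the 20 myometrium libraries, ordered by falling Afp. The dashed line divides the 8 libraries over 1000 CPM of Afp from the 12 others and the dotted line marks 1000 CPM; Apoa1, Cubn and H19 are lower in every library right of the dashed line, Hsd3b1 nearly meets across it, and the muscle actin Acta2 stays between 2577 and 6061 CPM.

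A programme of 764 genes came with Afp. With treatment as a term, edgeR's quasi-likelihood test put 764 of 15204 genes higher in the 8 libraries (5.02%) and 38 lower (0.25%), 802 in all (5.27%), at a Benjamini-Hochberg adjusted p under 0.05, with Afp itself left out of all counts. The libraries were sorted by their own Afp counts, so each p says that a gene goes with Afp and is not the result of a planned comparison. Of the 764 genes, 438 were at least 2-fold, 244 at least 4-fold and 97 at least 16-fold higher. The filter on low counts kept genes found almost only in the 8 libraries. For such genes a call as higher was near fixed. Requiring at least 1 CPM in 10 libraries left 14158 genes, of which 550 were higher and 41 lower. The 244 genes together took 0.556% to 3.24% of counts in the 8 libraries (median 1.57%) and 0.0666% to 0.17% in the 12 (median 0.115%). The 38 lower genes had a median log2 difference of -0.47, and 3 of them were at least 2-fold lower. Their number was unstable. It was 6 with the label number as a replicate block, 19 without PBS 4 or without PBS 8 and 25 without hCG 10. It was 59 without hCG 1, hCG 3 or hCG 6, 67 without hCG 2, 69 with upper-quartile factors and 110 with DESeq2. Without PBS 4 the count of called genes was 568 in place of 802. Since these are bulk samples, more cells of a type and more RNA per cell cannot be told apart.

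The proteins that visceral endoderm secretes formed the leading group. Of 25 tested genes on that list, 20 were higher and none lower, beside 5.02% higher and 0.25% lower over all genes tested. The list's median log2 difference was 3.62, beside -0.01 over all genes tested. Apoa1, the main protein of high density lipoprotein, stood at 191 CPM in the lowest, 837 in the median and 1726 CPM in the highest of the 8 libraries. Among the 12 it stood at 1.76, 21.0 and 55.2 CPM, so the classes did not overlap (log2 difference 5.21, SE 0.547, adjusted p = 2.46e-06). Apob, the structural protein of the lipoproteins that carry fat, had 1139, 2826 and 7588 CPM against 13.8, 69.8 and 259 CPM (lowest, median and highest in each class). Every one of the 8 libraries again lay above all 12 (log2 difference 4.94, SE 0.575, adjusted p = 6.94e-06). Trf, the iron carrier transferrin, had 992, 3253 and 6295 CPM against 126, 192 and 376 CPM, also without overlap. Its log2 difference was 3.99 with an SE of 0.284. Ttr, the thyroxine carrier transthyretin and the third marker of the class, stood at 24.9, 47.8 and 129 CPM against 0.201, 1.22 and 7.06 CPM (log2 difference 4.73, SE 0.497).

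Other secreted proteins of the group belonged to clotting, lipid and vitamin transport. The fibrinogen chains Fga, Fgb and Fgg were 30.6-, 34.7- and 27.4-fold higher, and Fgb ran from 66.2 to 1087 CPM in the 8 libraries and from 1.70 to 29.2 CPM in the 12. F2, prothrombin, was 29.7-fold higher. Among apolipoproteins, Apoa4 was 36.6-fold, Apom 26.9-fold and Apoc2, the activator of lipoprotein lipase, 17.9-fold higher. Gc, which carries vitamin D, was 12.3-fold higher and Alb, albumin, 10.7-fold. Alb overlapped between classes, with 80.2 CPM in the lowest of the 8 libraries and 107 CPM in the highest of the 12. Serpina1a and Serpina1b, protease inhibitors, passed the test at log2 differences of 0.74 and 0.73, but they are near-identical copies between which reads can be split and are uncertain. The 5 members that did not pass were Rbp4 (log2 difference 2.06, adjusted p = 0.13), Serpina1d (0.43), Serpina6 (0.93), Vtn (0.56) and Ahsg (-0.36), and Apoc3 and Ambp had too few counts to be tested.

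Apoa1 and Apoa4 are neighbours on chromosome 9 and both were over 36-fold higher, so the 120 bases before the start of each are shown (RefSeq, GRCm38.p6, 5′ to 3′ on the strand of the gene). No capitals are used because neither holds the letters searched below.
Apoa1, chr9:46228510-46228629, plus strand: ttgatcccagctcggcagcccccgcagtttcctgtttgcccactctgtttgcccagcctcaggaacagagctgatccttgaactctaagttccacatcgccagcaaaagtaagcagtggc
Apoa4, chr9:46240724-46240843, plus strand: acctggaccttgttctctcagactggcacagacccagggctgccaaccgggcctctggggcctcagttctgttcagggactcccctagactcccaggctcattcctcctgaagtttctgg

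Of the 20 higher secreted genes, 18 had a RefSeq promoter, 19 promoters in all. In the 250 bases before the start, none of the 19 held the HNF4 letters CAAAGTCCA or the GATA letters AGATAAG on either strand. Of all 32851 promoters 0.384% and 2.74% held them, and of the 770 promoters of all higher genes 0.779% and 2.47%. The absence of a match says only that these letters are not in this window.

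Receptors of protein uptake came with Afp, and 5 of 12 tested genes of endocytic uptake were higher, beside 5.02% of all genes tested. Cubn, cubilin, stood at 84.3, 138 and 336 CPM in the lowest, median and highest of the 8 libraries and at 1.94, 5.74 and 18.0 CPM in the 12, with no overlap (log2 difference 4.58, SE 0.381, adjusted p = 1.50e-07). Lrp2, megalin, the receptor that works with cubilin, had 97.4, 275 and 542 CPM against 2.81, 12.1 and 29.8 CPM and was 22.5-fold higher. Amn, amnionless, which carries cubilin to the membrane, was 9.12-fold higher at no more than 2.96 CPM. In the 12 libraries Amn stayed at or under 0.631 CPM, so its call was near fixed by the filter on low counts. The scavenger receptor Stab2 was 6.92-fold and the clathrin adaptor Dab2 1.84-fold higher. The 7 others, among them the antibody receptor Fcgrt, had log2 differences from -0.17 to 0.30 and did not pass. Of 18 lysosomal genes, 3 passed, the proteases Ctsh and Lgmn and the cholesterol exporter Npc1, at log2 differences of 0.60 to 0.71. The list's median of 0.14 lay near that of all genes. Under 35 alternative settings Ctsh lost its call 5 times (adjusted p up to 0.22), Lgmn 4 times (up to 0.21) and Npc1 once (0.092).

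Genes of microvilli and of lipid export were higher as well, in 10 of 19 and 6 of 11 tested genes, beside 5.02% of all genes tested. Which cells this RNA came from was not tested. The links between microvilli, Cdhr2 and Cdhr5, were 29.6- and 15.2-fold higher, and Cdhr2 ran from 9.54 to 82.9 CPM in the 8 libraries against 0.0607 to 4.64 CPM in the 12. The membrane mucin Muc13 was 22.3-fold and the actin bundler Vil1, villin, 6.96-fold higher. Slc7a9 and Slc3a1, which together form an amino acid exchanger of apical membranes, were 17.6- and 2.91-fold higher. Slc7a9, and Pla2g12b of the lipid list, stayed at or under 0.534 and 0.438 CPM in the 12. Their calls as higher were near fixed by the filter on low counts. Anpep (log2 difference -0.49, adjusted p = 0.15), Treh (-0.05) and Enpep (-0.03), all enzymes of apical membranes, did not pass, nor did the 6 others of that list, from 0.21 for Dpp4 to 1.52 for Myo1a. Mttp, which loads lipid onto apolipoprotein B, stood at 8.53 to 34.7 CPM in the 8 libraries and at 3.35 to 6.12 CPM in the 12, a 4.16-fold difference without overlap. Dgat2, which makes triglyceride, was 2.10-fold higher and Scarb1, the receptor for high density lipoprotein, 2.20-fold. Of 13 genes of iron, vitamin and metal handling, 2 passed, the folate receptor Folr1 (1.92-fold) and the zinc and manganese importer Slc39a8 (2.40-fold). The ferritin genes Fth1 and Ftl1 did not (log2 differences 0.10 and 0.12).

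Transcription factors of the endoderm were higher in 7 of 13 tested cases, beside 5.02% of all genes tested. Hnf4a, a nuclear receptor that drives apolipoprotein and clotting genes, stood at 3.49, 12.04 and 21.6 CPM in the lowest, median and highest of the 8 libraries and at 0, 0.63 and 1.40 CPM in the 12. It was 17.2-fold higher with no overlap (adjusted p = 3.66e-07). Foxa2, Foxa3 and Gata4 were 9.40-, 10.6- and 11.4-fold higher, each with overlap, and the bile acid receptor Nr1h4 7.41-fold without overlap. Foxa3 and Gata4 stayed at or under 0.436 and 0.545 CPM in the 12, so their calls were near fixed by the filter on low counts. Creb3l3, a factor of liver and gut lipid metabolism, was 6.85-fold higher. Gata6, Sox17, Sox7, Maf and Prdm1 did not pass, with log2 differences from -0.14 to 0.38. Sox7 and Gata6 also serve the parietal endoderm, which lays down a thick basement membrane. Of 13 genes of that layer 1 passed, the laminin chain Lama1 at 3.66-fold, a count near the share over all genes tested. Its laminin partners Lamb1 and Lamc1 had log2 differences of -0.21 and -0.09. None of the 7 tested genes of amnion and extraembryonic mesoderm passed, and 7 more on that list had too few counts.

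**Figure D2:**
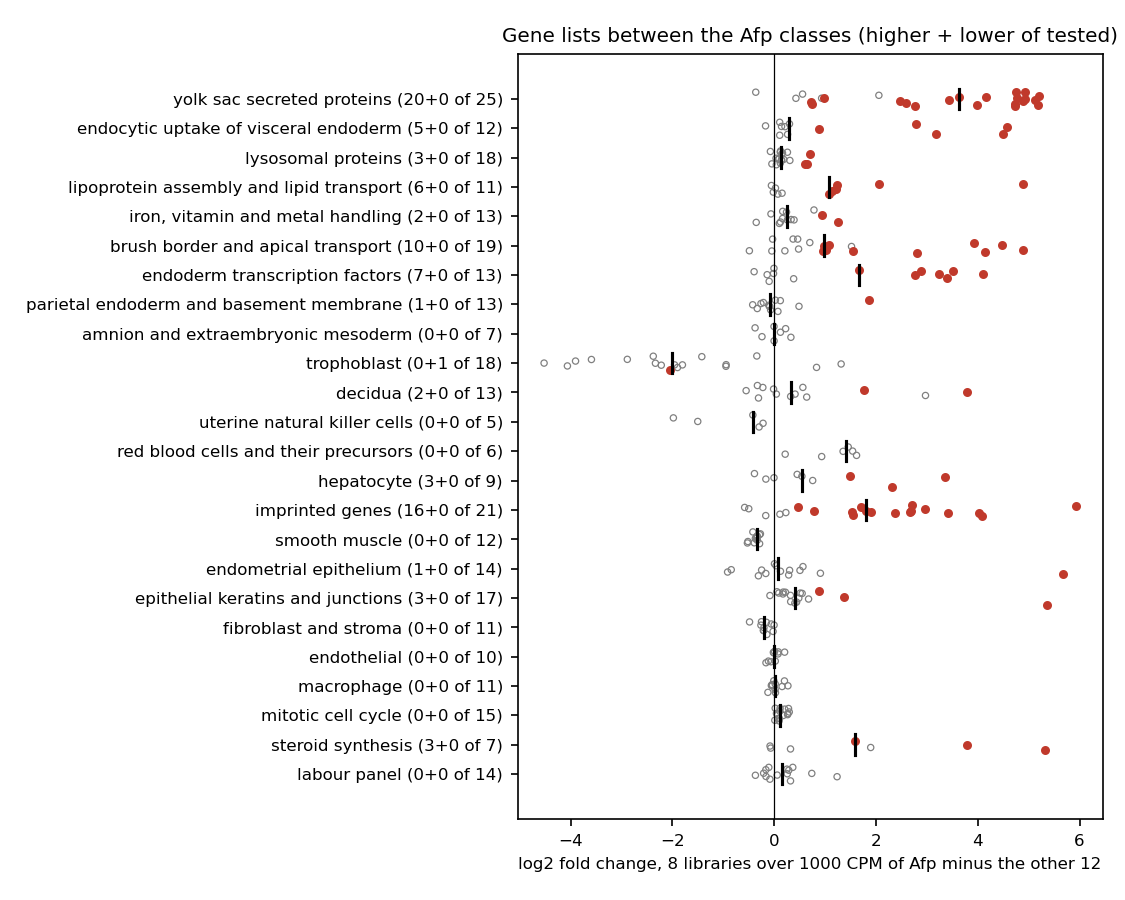
Log2 fold change between the 8 libraries over 1000 CPM of Afp and the 12 others, 1 point per tested gene, by gene list. Filled points passed the test, open points did not, bars are list medians and the labels count higher and lower genes; the secreted proteins have the highest median (3.62) and the trophoblast list the lowest (-2.01).

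Imprinted genes, expressed from a single parental copy and in large part active in fetal and placental growth, were higher in 16 of 21 tested cases, with a median log2 difference of 1.80. Over all genes tested 5.02% were higher. H19, a non-coding RNA, stood at 272, 1034 and 2107 CPM in the lowest, median and highest of the 8 libraries and at 12.5, 69.8 and 109.7 CPM in the 12 (log2 difference 4.08, SE 0.384, adjusted p = 4.22e-07). Its neighbour Igf2, a fetal growth factor, had 39.5, 289 and 679.9 CPM against 2.0, 15.2 and 39.0 CPM, a gap of less than 1 CPM between the classes. Dlk1, a Notch-like membrane protein, stood at up to 14.6 CPM in the 8 and at no more than 0.284 CPM in the 12. Its call as higher was near fixed by the filter on low counts. The retrotransposon-derived Peg10 was 7.78-fold higher, the zinc finger gene Peg3 6.41-fold, the cell cycle inhibitor Cdkn1c 6.57-fold and Mest 6.32-fold. Igf2r, which clears Igf2, differed by a log2 value of 0.47 and passed. Dio3, Ndn, Sgce, Impact and Gatm did not pass, with log2 differences from -0.58 to 0.23. Genes on opposite strands overlap at several of these loci, among them Peg3 and its antisense transcript, and counts of such pairs cannot be told apart because the counting strand is not given. Gpc3, a proteoglycan that restrains growth and is no member of the list, was 11.04-fold higher (43.3 to 250.5 against 9.54 to 17.1 CPM).

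Further genes with the smallest p outside every list were of mixed function. Kng1, kininogen, stood at 59.5 to 514.5 CPM against 7.05 to 23.3 CPM. Agt, angiotensinogen, was 17.1-fold higher, the inter-alpha-trypsin inhibitor chain Itih3 10.0-fold, Igfals, which holds insulin-like growth factors in plasma, 14.7-fold and the sugar kinase Hkdc1 30.5-fold. Among genes at low levels, the mitochondrial acyl-CoA synthetase Acsm1, the membrane protein Clrn3 and the homeobox gene Nkx2-3 reached 10.8, 7.55 and 2.49 CPM in the 8 libraries and stayed at or under 0.298 CPM in the 12. These, like others named here that were near 0 in the 12, passed the filter on low counts only through the 8 libraries. Spink1, a trypsin inhibitor fixed on the list of endometrial epithelium, had 17.8, 51.5 and 243 CPM against 0, 1.70 and 4.08 CPM and was the 1 of 14 tested genes of that list to pass. That count is near the share of 5.02% over all genes tested. Ltf, Muc1 and Klf5 of the same list did not pass (log2 differences 0.29, 0.01 and 0.51). Tbx20, a T-box factor named here after its values were seen, ran from 1.10 to 51.1 CPM against 0 to 0.591 CPM. Upk3b, an uroplakin also named after its values were seen, had 3.67 to 35.9 CPM against 1.54 to 16.04 CPM and overlapped.

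Steroid-making enzymes were higher in 3 of 7 tested cases, beside 5.02% of all genes tested, and they were uneven among the 8 libraries. Hsd3b1, which makes progesterone from pregnenolone, stood at 36.0, 399 and 1409 CPM in the lowest, median and highest of the 8 and at 1.03, 13.6 and 34.3 CPM in the 12, so that the classes met within 2 CPM (log2 difference 5.33, SE 0.805, adjusted p = 0.000196). Cyp11a1, the enzyme of the first step from cholesterol, had 33.4, 136 and 922 CPM against 1.52, 11.5 and 49.0 CPM and overlapped. Fdx1, its electron donor, was 3.02-fold higher. Star, which delivers cholesterol to that enzyme, reached 746 CPM in hCG 5 and 10.5 to 41.6 CPM in the 7 others, and did not pass (log2 difference 1.90, adjusted p = 0.36). Its sign turned without hCG 5 (log2 difference -0.15). Cyp11a1 is also a decidual gene. Of 13 decidual genes, Cyp11a1 and Tdo2, a tryptophan-degrading enzyme (3.42-fold), passed. Prl8a2, a decidual prolactin, reached 1216 CPM in hCG 1 and no more than 41.3 CPM in the 7 others (adjusted p = 0.28). The summed decidual list ran from 308 to 1487 CPM in the 8 libraries and from 211 to 471 CPM in the 12. With the joint sum of the decidual and trophoblast lists as a covariate, the class test called 881 genes in place of 802. Over all alternative settings, this covariate among them, adjusted p stayed at or under 0.0031 for Hsd3b1 and 0.0185 for Fdx1. Cyp11a1, itself a member of the decidual list, lost its call under 1 setting (adjusted p = 0.18). The part of the decidual list alone in the steroid result was not tested.

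Of 33 listed trophoblast genes 18 were tested and none was higher with Afp, while 15 had too few counts. Over all genes tested 5.02% were higher and 0.25% lower, so a count of 0 higher among 18 is near that share. Psg23, a secreted pregnancy glycoprotein, was lower (2.60 to 12.7 against 3.48 to 91.1 CPM, adjusted p = 0.046). That call was lost under 18 of 35 alternative settings. The list summed to 10.7 to 485 CPM in the 8 libraries, with hCG 5 (485 CPM) and hCG 1 (104 CPM) over 100 CPM, and to 9.57 to 855 CPM in the 12, with hCG 6, hCG 8, hCG 9 and PBS 1 over 100 CPM. Tpbpa, the defining gene of spongiotrophoblast and named after its values were seen, stood at 158 CPM in hCG 5 and at no more than 4.77 CPM in the 7 others, against up to 208 CPM in the 12. Prl3b1, placental lactogen, stayed at or under 3.23 CPM in the 8 and reached 52.5 CPM in the 12. Members of the Prl and Psg families are similar in sequence, and their separate values are uncertain. Without the 6 libraries over 100 CPM of trophoblast RNA the class test called 712 genes.

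None of 12 listed smooth muscle, 11 fibroblast, 10 endothelial, 11 macrophage, 5 natural killer cell and 15 mitotic genes passed the test in either direction. All 12 smooth muscle genes and all 11 fibroblast genes had lower values in the 8 libraries, with medians of -0.34 and -0.20. Over all genes tested, 7273 of 15204 had higher values in the 8 libraries, with a median of -0.01. Acta2, smooth muscle actin, stood at 2756, 3535 and 4669 CPM in the lowest, median and highest of the 8 and at 2577, 4608 and 6061 CPM in the 12 (adjusted p = 0.33). Red blood cell genes had higher values in 6 of 6 tested cases, with a median of 1.41, and none passed. The beta globin Hbb-bs ran from 186 CPM to 2853 CPM (PBS R3) in the 8 and from 51.3 to 899 CPM in the 12 (adjusted p = 0.19), and its copies could share reads. Embryonic globins Hbb-bh1, Hbb-y and Hba-x had too few counts to be tested. Of 9 tested hepatocyte genes, Hpx, the heme carrier hemopexin, was 10.2-fold, the urea cycle enzyme Ass1 2.81-fold and the histidine-degrading Hal 4.97-fold higher. Cps1, Tat, Hp, Cyp2e1 and Mat1a did not pass, and 8 others, such as Otc and F9, had too few counts. Of 17 epithelial keratin and junction genes 3 passed, and 5.02% of all genes tested were higher. Cldn6, a claudin of embryonic epithelia, stood at 1.28 to 4.03 CPM in the 8 and at no more than 0.274 CPM in the 12, so its call was near fixed by the filter. E-cadherin, Cdh1, was 1.85-fold and Cldn4 2.58-fold higher.

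The genes that were lower with Afp had small differences. Mill2, a class I-like molecule, stood at 7.14 ± 1.51 CPM (SD, n = 8) against 11.9 ± 1.96 CPM (SD, n = 12), and Ciita, the master regulator of class II antigen presentation, at 4.56 ± 1.05 against 8.10 ± 2.70 CPM. Others with small p were Camk2g, a calmodulin-dependent kinase (0.754-fold), the calcium channel subunit Cacnb2 (0.712-fold) and Bves, a membrane protein of striated and smooth muscle (0.757-fold). Kcnmb1, the smooth muscle subunit of the BK potassium channel and named after its values were seen, was 0.756-fold. Under 35 alternative settings the call was lost 11 times for Kcnmb1, 5 for Cacnb2, 4 for Bves, 3 for Ciita, 2 for Camk2g and 1 for Mill2. None of the 12 genes on the smooth muscle list was among the lower genes. The classes overlapped for each of these genes.

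Y-linked RNA, which a dam does not make, is a measure that the choice by Afp did not use. The 7 Y-linked genes summed to 62.9 CPM in hCG 10, 36.9 in PBS 8, 18.2 in hCG 7 and 8.91 in hCG 3, and to 1.66 CPM or less in PBS 4, PBS R3, hCG 5 and hCG 1. In the 12 other libraries the sum was 1.75 CPM or less. The 8 libraries had 16.1 ± 22.9 CPM and the 12 had 0.437 ± 0.533 CPM (SD, n = 8 and 12), a difference of 15.7 CPM (two-sided exact permutation test over 125970 splits, p = 0.0133). Without hCG 10 the difference was 8.98 CPM. Counts of Ddx3y, Eif2s3y and Uty, which are expressed in most male cells, added up to 959 in hCG 10, 184 in PBS 8, 214 in hCG 7 and 92 in hCG 3. All 3 genes were at 0 in PBS 4, PBS R3, hCG 5 and hCG 1, which had 3082 to 11957 CPM of Afp. Kdm5d, also on the list, had counts where these 3 genes had none, such as 14 in PBS 4 and 7 in hCG 6. The small sums are therefore uncertain as a measure of Y-linked RNA. Among the 12, hCG 2 had 25 such counts, PBS 6 had 9, PBS 5 had 7 and 9 libraries had none. High Afp thus came with Y-linked RNA in 4 libraries and without it in the 4 others. Without the 4 libraries with Y-linked RNA the class test called 526 genes, 508 of them higher, in place of 802.

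**Figure D3:**
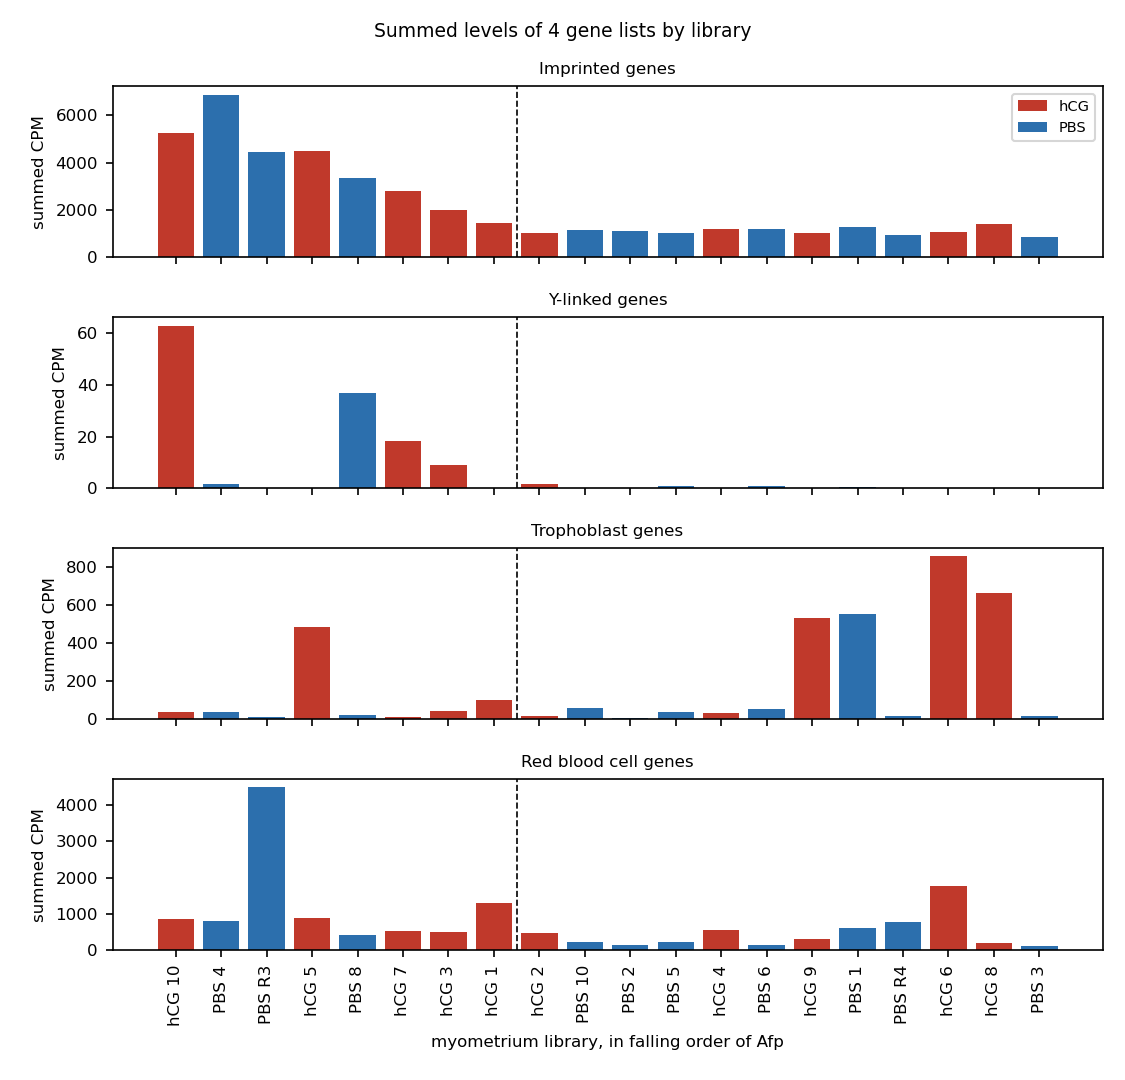
Summed CPM of 4 gene lists in each myometrium library, ordered by falling Afp, with hCG libraries in red and PBS libraries in blue and a dashed line after the 8 libraries over 1000 CPM. Imprinted genes are above 1458 CPM in all 8, Y-linked genes are above 5 CPM in 4 of the 8, and trophoblast and red blood cell genes do not follow the order.

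The programme was examined within each treatment, in libraries that the 2 tests did not share. Within PBS, 3 against 7 libraries, 488 of 15073 genes were higher (3.24%) and 31 lower (0.206%). Within hCG, 5 against 5, 125 of 14665 were higher (0.852%) and none lower, with 956 genes at an unadjusted p under 0.05 in either direction and 7 lower by DESeq2. Of the higher genes 107 were shared, which is 21.9% of the PBS list and 85.6% of the hCG list. All 119 of the hCG list that were tested in PBS had a positive log2 difference there, with medians of 3.68 in PBS and 3.10 in hCG. Of the 446 genes of the PBS list tested in hCG, 443 had a positive difference there, with medians of 1.77 in PBS and 1.23 in hCG. Over all 14551 genes in both tests the medians were -0.04 in PBS and -0.02 in hCG, and the share of positive values was not counted. Afp split the libraries in both treatments, so both lists were picked by the same measure. For Apoa1 the log2 difference was 5.63 (SE 0.622) in PBS and 4.80 (SE 0.804) in hCG, and for Cubn 4.63 (SE 0.459) and 4.50 (SE 0.546). H19 differed by 4.73 (SE 0.440) and 3.44 (SE 0.488), and Hsd3b1 by 5.45 (SE 0.779) and 5.18 (SE 1.36), the last with an adjusted p of 0.21. Secreted proteins were higher in 17 of 24 tested cases within PBS and 13 of 24 within hCG, and imprinted genes in 15 of 21 and 3 of 19. The difference between treatments was itself tested as an interaction. No gene of 15660 passed (0.0% called), with 568 at an unadjusted p under 0.05 and 4 called by DESeq2. For H19 the interaction was -1.30 on the log2 scale (SE 0.698, adjusted p = 0.998). Within PBS the 31 lower genes became 5 without PBS 4, 9 without PBS 8, 13 without PBS 10, 17 without PBS 2 or PBS 5, 61 without PBS 1, 66 without PBS R3 and 138 with DESeq2. All calls within PBS numbered 289 without PBS 4, and the count within hCG was 61 without hCG 9, 71 to 81 without hCG 4, hCG 5, hCG 6, hCG 7 or hCG 8, and 248 without hCG 1.

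**Figure D4:**
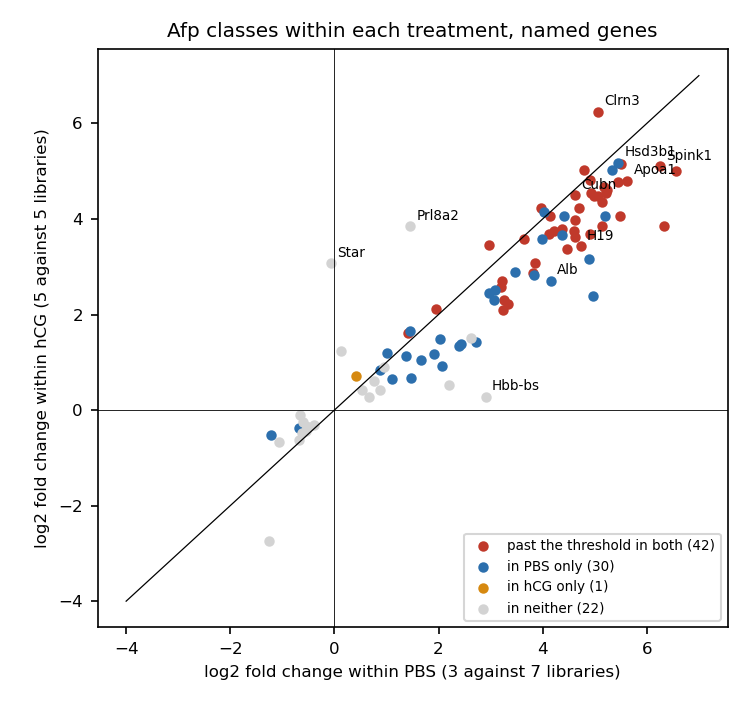
Log2 fold change between the Afp classes within PBS (x axis, 3 against 7 libraries) and within hCG (y axis, 5 against 5 libraries) for the 95 named genes tested in both, with the line of equality. Of these, 42 passed the test in both treatments, 30 in PBS only, 1 in hCG only and 22 in neither; whether the 2 values differ was tested by the interaction.

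Afp also varied within each class, and the genes that followed it there were found with log2 Afp as a continuous term, a test added after the data were seen. Afp was again the measure here. The 764, 5.02% of genes tested between classes, came from the same libraries, so overlap with them is no separate support. Among the 12 libraries at 1000 CPM or less, 8 of 15605 genes followed Afp (0.0513%), all upward and all among the 764. They were Apoa1 (slope 0.89 log2 units per doubling of Afp, SE 0.0701, adjusted p = 1.70e-05), Apoa4 (1.18), Cdhr2 (1.03), Spink1 (1.10), Fgb (0.75) and Cubn (0.50), with Sprr2a1 (0.97), a cornified envelope protein, and Tph1 (0.88), which starts serotonin synthesis, the last pair named after their values were seen. Ttr (0.25, adjusted p = 0.93) and H19 (0.37, adjusted p = 0.93) did not pass there. Copies of the Sprr2a gene are near-identical, so its counts are uncertain. Leaving out a library gave 4 (without PBS 10) to 9 genes, and 5 without PBS 2 or PBS 3.

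Among the 8 libraries over 1000 CPM, 40 of 15101 genes followed Afp (0.265%), all upward. Of the 40, 37 (92.5%) were among the 764 (5.02% of genes tested between classes), a list drawn from the same libraries by Afp. The 40 included Trf (slope 0.95), Lrp2 (0.94), Gpc3 (1.0), Kng1 (1.24), Fgg (1.10), Apoa1 (1.09), H19 (1.02), Peg10 (1.09), Peg3 (1.05) and Hpx (1.38). The smallest adjusted p in this test was 0.0085 for Pklr, the pyruvate kinase of liver and red cells (1.48), which with the apolipoprotein Apoc1 (1.30) was named after its values were seen. The 3 outside the 764 were Ahsg (1.53), the protease inhibitor Pzp (1.65) and E330023G01Rik (2.36). Apoa1 was the gene shared with the 8 that followed Afp among the 12. This count rested on few libraries: it was 2 without hCG 10, 6 without hCG 3, 8 without PBS 4, 9 without hCG 1, 15 without PBS 8, 23 without hCG 7 and 89 without PBS R3.

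Within the 8 libraries the programme was not of fixed proportions. For the 67 genes at least 4-fold higher and with a mean of at least 20 CPM in the 8 libraries, the log2 ratio to Apoa1 was taken per library, and its SD over the 8 ran from 0.221 to 1.42 with a median of 0.591. It was under 0.5 for 28 genes and over 1 for 10. H19 had the smallest SD, at 101% to 165% of the CPM of Apoa1. Lrp2 (29.5% to 50.9%), Apoa4 (38.0% to 65.7%) and Trf (258% to 518%) also stayed close. Ttr was the loosest, from 1.44% of Apoa1 in PBS 4 to 26.3% in hCG 1. Cubn likewise ran from 4.88% in PBS 4 to 66.9% in hCG 1, and Apob from 132% in PBS R3 to 977% in hCG 1. Hsd3b1 took another order, from 8.73% in hCG 3 to 159% in hCG 5. Alb ranged from 16.5% in hCG 3 to 112% in PBS R3. CPM here compares each gene with itself across libraries, since levels of different genes are not corrected for length.

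**Figure D5:**
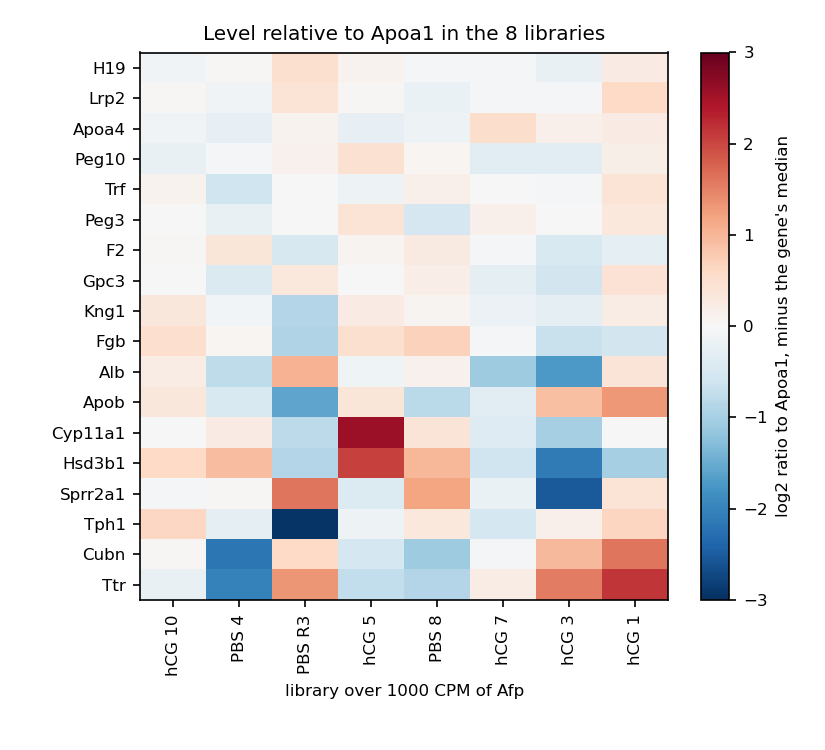
Log2 ratio of 18 genes to Apoa1 in the 8 libraries over 1000 CPM of Afp, each gene centred on its own median, with red above and blue below that median. The upper rows (H19, Lrp2, Apoa4, Peg10, Trf) are pale, while Ttr and Cubn are blue in PBS 4 and red in hCG 1.

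The Afp class was then set beside the treatment that the study assigned. With the class as a term, 2 of 15204 genes passed for hCG against PBS (0.0132%), and without it 2 of 14516 (0.0138%), 1 of them shared. With the class these were Slc25a48, a mitochondrial carrier, at 2.41 ± 0.555 CPM in hCG and 5.88 ± 1.83 CPM in PBS (SD, n = 10 each, log2 difference -1.28, SE 0.192, edgeR adjusted p = 0.0159), and Tmem52b, a membrane protein, at 8.17 ± 2.52 and 3.42 ± 1.42 CPM (1.37, SE 0.231, adjusted p = 0.0388). Without the class, Ces1d, a carboxylesterase, passed in place of Tmem52b (adjusted p = 0.023, and 0.0565 with the class). None of these 3 passed for the class (adjusted p for the class 0.94, 0.45 and 0.76). No gene passed among the 12 libraries alone, where 1089 had an unadjusted p under 0.05. DESeq2 called 214 genes for treatment with the class in the fit, and 2134 had an unadjusted p under 0.05 in edgeR. The count was 0 without PBS R3, without PBS 8, without hCG 6 or without the libraries with over 1% of Lars2, and 10 without hCG 9. It was 1 without PBS 4, PBS 6, PBS 10, PBS R4, hCG 1, hCG 3, hCG 4 or hCG 7, and 3 to 6 without hCG 2, PBS 1, PBS 2 or PBS 5. No secreted or imprinted gene passed for treatment. Of 14 tested genes of a labour panel, such as the oxytocin receptor Oxtr and the gap junction gene Gja1, none passed for class (lowest adjusted p = 0.33) or for treatment (lowest adjusted p = 0.18). Over all genes tested 5.27% passed for class and 0.0132% for treatment, so counts of 0 among 14 are near those shares.

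In the 20 cervix libraries of the series Afp did not exceed 44.8 CPM. In the 8 cervix libraries that share treatment and number with the 8 described here it had a median of 2.99 CPM and a range of 0.203 to 44.8 CPM. In 10 that share them with the others it had a median of 5.0 CPM and a range of 0 to 33.7 CPM. Hsd3b1 stayed at or under 0.53 CPM in the cervix. H19 reached 186 CPM in a single cervix library of the first set, against 12.3 CPM or less in the second.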

How the data were processed

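The authors deposited a table of raw counts per gene for 40 libraries with 23079 gene identifiers, whole numbers whose totals differ between libraries. Per the submitters' processing notes TopHat2 and GRCm38 (mm10) were used; for the counting tool, the annotation and the strand setting the sources used here give nothing. Names and positions came from a RefSeq table of GRCm38.p6, which matched 23008 identifiers. CPM is the count over the library's total. Genes were filtered with edgeR's filterByExpr, scaled by TMM factors and tested with its quasi-likelihood F-test with robust dispersion (R 4.3.3, edgeR 4.0.16, limma 3.58.1), Benjamini-Hochberg adjusted over all genes tested, threshold 0.05. The model held Afp class and treatment for the 20 myometrium libraries. SE is the log2 difference divided by the square root of F. The Y-linked sum was compared by an exact permutation test. DESeq2 1.42.0 was an alternative.

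The members, the 25 gene lists (388 genes, 3 not in the table) and the tests were chosen with earlier results of these data known. Genes named are up to 8 per list by smallest p, all secreted and Y-linked genes, the 12 higher and 12 lower with the smallest p in no list and without predicted models, the labour panel, and 5 for treatment; list members beyond these were named after their values were seen, to spell out a list's counts, and other such genes are marked where they appear. The smallest chi-square per gene between libraries of a group was 18.1, so none was a duplicate. The analysis code was tested on simulated data. Some members of the lists are counted but not reported by name.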

Additional observations from a re-analysis of the deposited data

Results flagged for a closer look

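Within the 8 libraries, 129 values were checked for a highest or lowest library that stands apart from the 7 others (Dixon's 95% limit), and 17 did (13.2%). Chance gives about 1 in 20 for independent values with a normal distribution. Several of these values move together or are parts of a sum, so 13.2% is no measure of an excess. The library hCG 5 stood apart in Cyp11a1 (922 CPM against 33.4 to 361 in the others), Fdx1 (171 against 20.4 to 67.7), Star (746 against 10.5 to 41.6), Gata4 (9.13 against 0 to 1.66), Tpbpa (158 against 0 to 4.77) and the trophoblast sum (485 against 10.7 to 104). Steroid enzymes, the spongiotrophoblast gene Tpbpa and a gonadal and endodermal factor were thus high in the same library, and whether they share a source was not tested.

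PBS R3 stood apart in Hba-a2 (1569 CPM against 210 to 681), Hbb-bs (2853 against 186 to 601) and the red blood cell sum (4488 against 412 to 1317), and in Ugt8a (17.3 against 1.19 to 8.55) and Mill2 (10.4 against 5.14 to 7.36). hCG 10, which had the most Afp, stood apart in Fgg (447 against 56.5 to 227) and Gc (49.8 against 13.3 to 23.2). PBS 4 stood apart in Tdo2 (48.1 against 4.04 to 24.5), Lama1 (86.0 against 13.4 to 45.6) and Tbx20 (51.1 against 1.10 to 19.8). hCG 1 stood apart in Prl8a2 (1216 against 0 to 41.3).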

How the results depend on the processing

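The 802 genes called between classes ranged from 568 (without PBS 4) to 846 when each library was left out. The label number as a replicate block gave 411, and leaving out the 4 libraries with Y-linked RNA gave 526; the settings not named here kept the count within 1.5 times. Over 8 shared numbers the correlation of deviations from the treatment means ran from -0.239 to 0.194. From the treatment and class means it ran from -0.121 to 0.404, with 6 of 8 over 0.1. By deviations from the treatment means alone, 3 of 16 libraries correlated best with their own number. Since not every pair passed 0.1, the numbers were not taken to pair libraries in the main test. That cutoff does not settle whether they pair, and a weak pairing was not tested further. Of 91 called named genes, 66 kept their call under all 35 settings, 25 lost it at least once (82 of 3143 values) and none reversed; Star between Afp classes, not called, ran from -0.15 (without hCG 5) to 2.24 (without PBS R3). The 2 genes called for treatment became 214 with DESeq2, 4 at an Afp threshold of 500 CPM, 4 with continuous Afp, 6 with the replicate block, and 0 without libraries over 1% of Lars2, without those over 100 CPM of trophoblast RNA or among the 12 libraries alone, and 0 to 10 when each library was left out. The interaction count of 0 became 4 with DESeq2 and stayed 0 with the block and when each library was left out. Leaving out each library gave 289 (PBS 4) to 636 genes within PBS, in place of 519, and 61 (hCG 9) to 248 (hCG 1) within hCG, where DESeq2 gave 320 in place of 125. Genes following Afp numbered 4 to 9 among the 12 libraries and 2 to 89 among the 8. The Y-linked difference ran from 8.98 CPM (without hCG 10) to 18.0 CPM, with an exact permutation p of at most 0.0333. The causes of these moves were not tested. Depth limits genes under about 0.551 CPM, the level that 3 counts give in the shallowest library.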
